A study of Homo sapiens with 2 samples.

Results

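The Hedgehog pathway was described here through 9 genes: the ligands SHH, IHH and DHH, the receptor PTCH1 and its partner SMO, the inhibitor SUFU, and the transcription factors GLI1, GLI2 and GLI3. They were chosen by name, as 9 of 20033 protein-coding RefSeq genes on chromosomes 1 to 22, X and Y. The data are DNase-seq of Saos-2 and of U2OS, established human lines that were both derived from osteosarcoma, with 1 library per line. The labels name only the line and give no treatment, passage or culture condition. DNase I cuts DNA that nucleosomes leave exposed, and the authors called regions with many cuts as hotspots at a false discovery rate of 0.05. For each gene the hotspots that overlapped its span plus 100 kb on both sides were collected, which gave 87 of 51556 hotspots in Saos-2 and 112 of 63388 in U2OS. All positions are on hg38. With 1 library per line there is no replicate error and no test between the lines, and the values compare these 2 libraries.

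Hedgehog ligands are secreted proteins that bind PTCH1 at the primary cilium. PTCH1 otherwise holds SMO inactive, and once SMO is released the GLI factors are freed from SUFU and switch on target genes, among them PTCH1 and GLI1 themselves. In the skeleton IHH from growth plate cartilage controls chondrocyte maturation and the formation of osteoblasts, and SHH patterns the limb. GLI2 acts mainly as the activator of the pathway and GLI3, after partial cleavage, mainly as a repressor.

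The number of reads behind either list is unknown, and a deeper library can give more hotspots. The U2OS list was 1.23-fold as long as the Saos-2 list, against which every count below is read. Significance is a deposited value per hotspot, which runs from 1.30 to a limit of 100 and was read as −log10 from its values. It was used to rank hotspots within their own list. At the starts of osteoblast lineage genes, hotspots were called for 4 of 9 genes in Saos-2 and 4 of 9 in U2OS, RUNX2, SPARC and BGLAP being covered in both. SPP1 and IBSP had none within 10 kb in either line. The same count was 2 of 4 blood genes in each line, 0 of 4 and 1 of 4 epithelial genes, and 2 of 3 and 3 of 3 neuronal genes, so start hotspots at these lists did not set the osteoblast genes apart.

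At the gene starts the ligands stood on one side and PTCH1, SMO, SUFU, GLI1 and GLI2 on the other, while GLI3 could not be placed. A hotspot lay within 1 kb of a start of PTCH1, SMO, SUFU, GLI1 and GLI2 in both lines, and of none of the 3 ligands in either line. GLI3 also had none by this rule, which checked only the ends of its span, so a start inside the span could not be called. The count was thus 5 of 9 in Saos-2, where 48.1% of protein-coding genes had a start hotspot, and 5 of 9 in U2OS, where 53.5% did. Among the genes with starts in the table these shares were 51.1% and 55.9%, and for the others, taken at either end, 36.7% and 44.3%. The same 5 genes were covered in both lines, a class that held 43.3% of protein-coding genes. The same 4 genes, GLI3 by its ends alone, were covered in neither line, a class that held 41.8%. The share over all 9 was therefore near the background. Starts came from a RefSeq promoter table on GRCh38.p14. GLI1 and GLI3 are not among its entries, so either end of their span was used, and for GLI3 the nearest hotspot to an end was 4.74 kb away in Saos-2 and 4.71 kb in U2OS. The split depends on the setting: within 10 kb of a start, 7 of 9 genes had a hotspot in each line, DHH and GLI3 among them. GLI3 was counted there through the lower-coordinate end of its span, which need not be its start. In the top 50% of each list 1 of 9 had one within 1 kb in Saos-2 and 3 of 9 in U2OS.

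The ligand starts lay at different distances from the nearest hotspot. For SHH it was 73.5 kb in Saos-2 and 73.2 kb in U2OS, for IHH 12.6 kb in both lines, and for DHH 6.31 kb in Saos-2 and 2.41 kb in U2OS. Across all protein-coding genes the median distance was 1.60 kb in Saos-2 and 0.341 kb in U2OS. Every ligand was thus further away than the median gene in both libraries.

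The sequences of the starts that carried hotspots are shown with that of SHH, which carried none. Each is the 250 bases before the start, 5′ to 3′ on the strand of the gene, from RefSeq on GRCh38.p14. Capitals mark bases inside a hotspot in both lines, except at the second GLI2 start, where they mark bases inside the U2OS hotspot.
PTCH1, internal start, chr9:95509267-95509516 (minus strand): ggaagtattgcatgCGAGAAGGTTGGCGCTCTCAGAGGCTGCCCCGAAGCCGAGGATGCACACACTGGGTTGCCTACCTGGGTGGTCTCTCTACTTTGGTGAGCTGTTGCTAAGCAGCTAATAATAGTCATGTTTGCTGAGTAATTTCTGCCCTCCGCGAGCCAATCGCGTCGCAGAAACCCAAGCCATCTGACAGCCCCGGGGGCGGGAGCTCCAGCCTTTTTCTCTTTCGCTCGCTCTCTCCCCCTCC
SMO, chr7:129188383-129188632 (plus strand): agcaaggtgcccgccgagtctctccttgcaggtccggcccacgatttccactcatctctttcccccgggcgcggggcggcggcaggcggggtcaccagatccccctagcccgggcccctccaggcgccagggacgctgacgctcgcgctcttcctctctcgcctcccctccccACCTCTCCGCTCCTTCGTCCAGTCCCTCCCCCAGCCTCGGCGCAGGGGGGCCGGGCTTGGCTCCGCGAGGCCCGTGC
SUFU, chr10:102503722-102503971 (plus strand): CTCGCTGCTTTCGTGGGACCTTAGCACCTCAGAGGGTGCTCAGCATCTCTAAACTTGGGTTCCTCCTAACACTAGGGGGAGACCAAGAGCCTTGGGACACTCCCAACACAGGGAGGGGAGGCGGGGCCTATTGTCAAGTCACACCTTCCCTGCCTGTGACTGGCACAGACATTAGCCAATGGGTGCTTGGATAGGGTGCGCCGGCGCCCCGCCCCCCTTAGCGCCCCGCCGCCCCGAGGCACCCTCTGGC
GLI2, outer start, chr2:120735618-120735867 (plus strand): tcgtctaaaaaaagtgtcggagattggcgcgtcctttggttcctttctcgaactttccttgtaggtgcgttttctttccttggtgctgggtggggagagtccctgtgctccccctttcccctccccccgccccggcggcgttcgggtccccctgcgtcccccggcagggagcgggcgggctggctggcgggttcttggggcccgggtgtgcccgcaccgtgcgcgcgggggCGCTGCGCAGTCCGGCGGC
GLI2, second start, chr2:120792031-120792280 (plus strand): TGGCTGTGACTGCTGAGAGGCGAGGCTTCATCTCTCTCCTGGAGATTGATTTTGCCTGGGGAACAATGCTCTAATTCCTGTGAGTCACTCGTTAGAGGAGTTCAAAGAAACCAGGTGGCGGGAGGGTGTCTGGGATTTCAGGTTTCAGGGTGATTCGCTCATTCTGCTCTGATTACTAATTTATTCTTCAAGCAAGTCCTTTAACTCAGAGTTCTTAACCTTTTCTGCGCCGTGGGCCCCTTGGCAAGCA
SHH, chr7:155812464-155812713 (minus strand): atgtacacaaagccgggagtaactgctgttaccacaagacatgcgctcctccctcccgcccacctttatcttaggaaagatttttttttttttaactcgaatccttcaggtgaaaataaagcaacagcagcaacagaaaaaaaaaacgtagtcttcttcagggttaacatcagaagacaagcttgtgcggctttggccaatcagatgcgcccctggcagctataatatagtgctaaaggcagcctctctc

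The hotspots over PTCH1 and SUFU filled most or all of these bases, with 236 and 250 bases covered in both lines. At SMO 77 bases were covered in both lines, 178 in Saos-2 and 77 in U2OS. At the outer GLI2 start only the last 19 bases were covered in both, 19 in Saos-2 and 50 in U2OS. The PTCH1 stretch holds the letters TGGGTGGTC, the reverse complement of the GLI binding sequence GACCACCCA, at chr9:95509430-95509438, centred 168 bases before the start. This match lies within the hotspots of both lines. Neither strand of the other 11 promoters of the pathway in the table (300 bases each, including 50 after the start) held it. Among all 35116 promoters of that length 83 did (0.236%), and the share was 0.231% among those touching a Saos-2 hotspot and 0.242% among those touching a U2OS hotspot. None of the 26 genes of a wider Hedgehog list with promoters in the table held it. A match to these letters describes the sequence and does not show binding.

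GC content did not separate the covered starts of these genes from the uncovered ones, although over all promoters it was higher in covered ones. The covered promoters had a GC content of 57.0% (PTCH1), 72.0% (SMO), 65.7% (SUFU) and 68.3% (outer GLI2 start), while the second GLI2 start had 46.3%. Of the uncovered ligand promoters, SHH was at 43.3% and DHH at 61.0%, and IHH was the richest of all at 76.3%, with 37 CpG dinucleotides. The uncovered PTCH1 promoters, by rising coordinate, were at 61.0%, 53.3%, 60.3% and 68.0%. The median over all promoters was 58.7%, and it was 65.0% over those touching a hotspot in either library, against 53.7% over those touching none in Saos-2 and 53.0% in U2OS. The GC box GGGCGG, searched on both strands, was present in the promoters of SHH, IHH, DHH, SMO and SUFU, and in 45.0% of all promoters. It was also present at the outer GLI2 start and at the covered and the outermost PTCH1 starts. The other PTCH1 starts, all uncovered, and the second GLI2 start lacked it. Over the whole table it was more frequent in covered promoters, at 70.8% of those touching a Saos-2 hotspot and 70.1% of those touching a U2OS hotspot. The letters TATAAA, also searched on both strands, were present in 11.5% of all promoters. Among the listed promoters of these genes only that of the second GLI2 start held them. The bases printed above for that start hold them on neither strand. The match thus lay in the part of the promoter after the start and is not a TATA box before it.

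The counts over the full windows, which run from 206 kb at IHH to 503 kb at GLI3, ranged widely between genes. In Saos-2 the windows held 1 hotspot at SHH, 7 at IHH, 11 at DHH, 7 at PTCH1, 9 at SMO, 11 each at SUFU, GLI1 and GLI2, and 19 at GLI3. In U2OS they held 1, 12, 15, 12, 6, 21, 8, 20 and 17, in the same order of genes. U2OS had more hotspots at 5 of 9 genes, against 56.4% of all protein-coding genes. Saos-2 had more at 3 of 9, against 30.5%, and SHH was equal, as were 13.1% of genes. These shares are close to the background. More bases were covered in U2OS at 8 of 9 genes, against 65.0% of all genes, and in Saos-2 at SMO alone, against 32.9%. The margin was small at GLI1, with 2866 bases in U2OS against 2843 in Saos-2. At SHH it was 186 against 157, from 1 hotspot in each line. The summed ratio of U2OS to Saos-2 was 1.29 for hotspots and 1.64 for covered bases, against 1.23 and 1.25 for the whole lists.

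**Figure D1:**
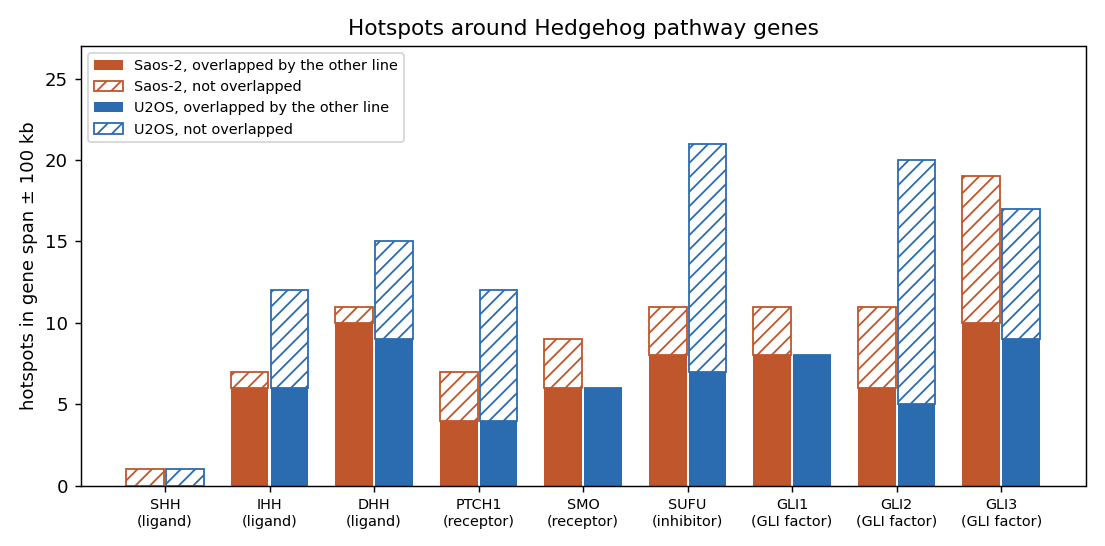
Hotspots in each gene span plus 100 kb (vertical axis, number of hotspots) for the 9 Hedgehog genes, with 1 bar per library; the filled part is overlapped by a hotspot of the other line and the hatched part is not. SUFU and GLI2 have the tallest U2OS bars, at 21 and 20, and no U2OS hotspot at SMO or GLI1 lacks a Saos-2 partner.

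A U2OS partner, meaning a hotspot sharing 1 bp or more, was present for 58 of 87 Saos-2 hotspots in these windows (66.7%, 95% Wilson interval 56.2 to 75.7%), compared with 58.1% over the whole list. A Saos-2 partner was present for 54 of 112 U2OS hotspots (48.2%, 39.2 to 57.4%), compared with 46.9%. Both intervals include the value of the whole list. The intervals allow for counting alone, and hotspots side by side are not independent draws. By position, 7 of 8 in each line had a partner near the starts of the Hedgehog genes, and 12 of 27 in Saos-2 and 10 of 27 in U2OS elsewhere in their gene bodies. At the starts of neighbouring protein-coding genes all 19 Saos-2 hotspots had a partner (lower Wilson limit 83.2%), and 17 of 28 in U2OS. Over all protein-coding genes, 9637 had a start hotspot in Saos-2 and 10708 in U2OS, and 8677 had one in both. A start hotspot in both lines was thus common over all genes, though these figures count genes and not overlapping hotspots.

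Per Mb of window the order in Saos-2 ran from SHH (4.71) through GLI2 (24.1), PTCH1 (25.5), SUFU (33.3), IHH (33.9), GLI3 (37.7), SMO (40.0) and GLI1 (51.8) to DHH (52.8). In U2OS it ran from SHH (4.71) through SMO (26.7), GLI3 (33.8), GLI1 (37.6), GLI2 and PTCH1 (43.8 each), IHH (58.1) and SUFU (63.5) to DHH (72.1). SHH and DHH held the same ends of the order in both lines. By role, in Saos-2 the windows held 30.3 hotspots per Mb for the ligands, 32.1 for the receptors PTCH1 and SMO, 33.3 for SUFU and 35.0 for the GLI factors, against 26.7 over the windows of all protein-coding genes. In U2OS the ligands had 44.6, the receptors 36.1, SUFU 63.5 and the GLI factors 38.4, against 31.3. The roles thus lay close together in Saos-2, and SUFU stood highest in U2OS with a single gene. Of the hotspots in the ligand windows, 1 of 19 in Saos-2 and 2 of 28 in U2OS lay inside a ligand gene, and these genes fill 4.33% of their windows. Neighbouring protein-coding genes or their starts held 16 of 19 and 20 of 28, and 2 of 19 and 6 of 28 lay between protein-coding genes. For the GLI factors, whose genes fill 48.8% of the windows, 24 of 41 and 22 of 45 hotspots lay inside the genes. With a flank of 10 kb the order changed, to 11.5 per Mb in Saos-2 and 23.0 in U2OS for the ligands, and 57.6 and 50.4 for the receptors.

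**Figure D2:**
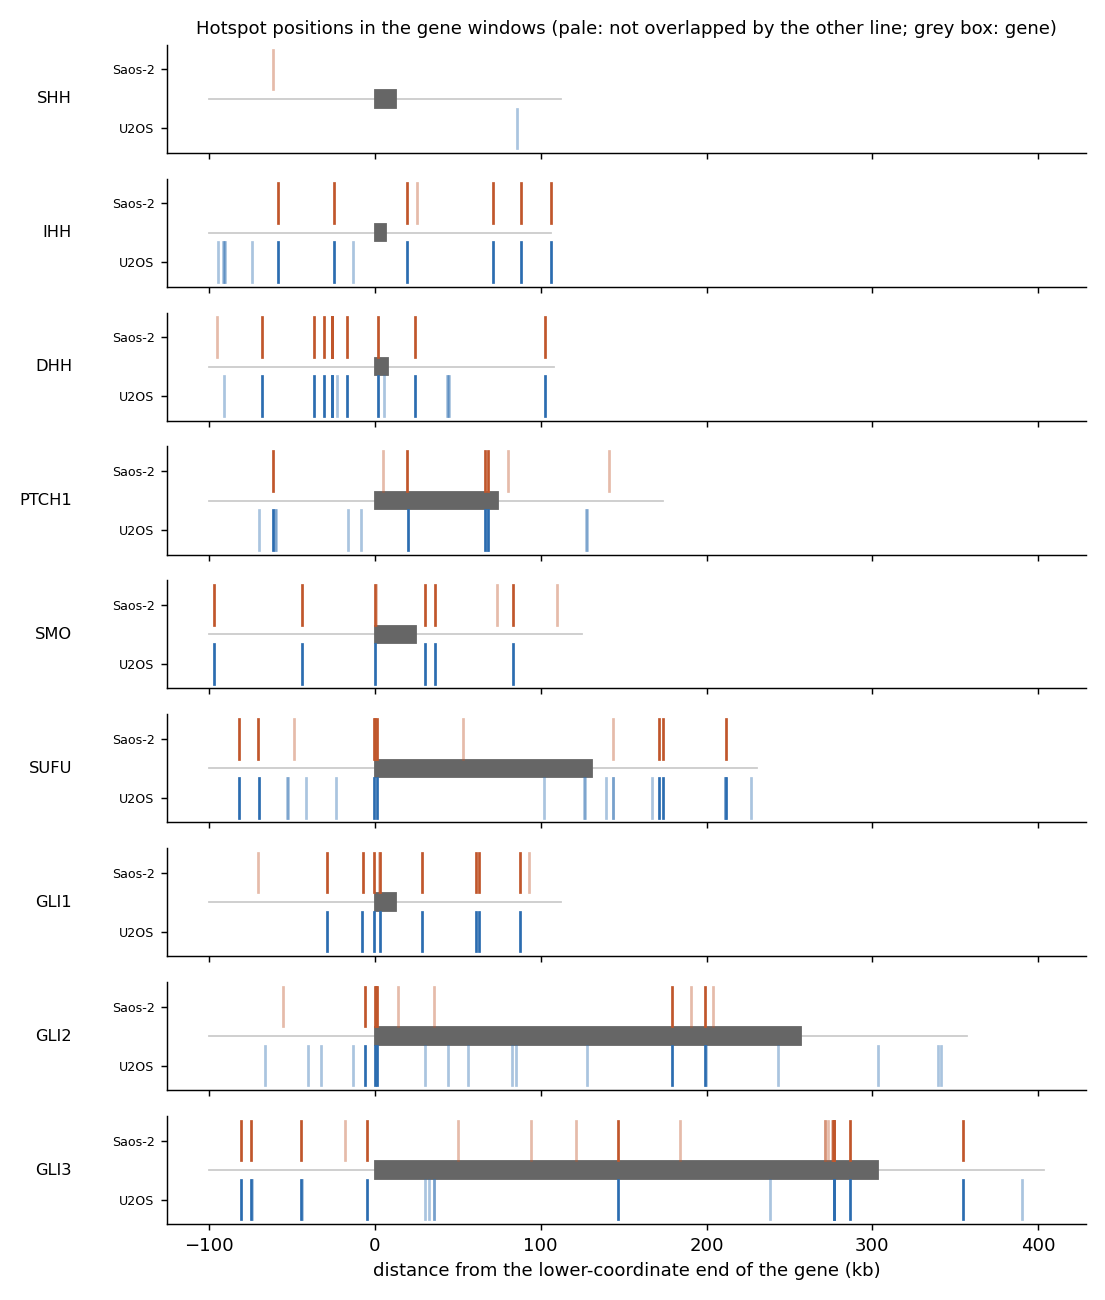
Positions of hotspots in the window of each gene (horizontal axis, distance in kb from the lower-coordinate end of the gene; grey box, gene span), with Saos-2 above and U2OS below the line. Pale ticks have no overlapping hotspot in the other library; SHH has 1 pale tick per library, and the U2OS ticks inside GLI2 are mostly pale.

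SHH, the ligand of limb and neural tube patterning (chr7:155799980-155812463), had the emptiest window. Saos-2 had a 157 bp hotspot (significance 3.95) at chr7:155738759-155738915, which lay inside the span of the neighbour RBM33. U2OS had a 186 bp hotspot (2.53) at chr7:155885669-155885854, which lay between protein-coding genes. They lay on opposite sides of the gene. At 4.71 hotspots per Mb, the window ranked above 9.16% of protein-coding genes in Saos-2 and above 4.36% in U2OS. Neither hotspot reached 200 bp or the more significant 50% of its list.

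IHH, the growth plate ligand (chr2:219054424-219060921), had no hotspot inside its span in either line. The nearest was shared and lay inside the neighbouring NHEJ1, a DNA end-joining gene whose introns are known to hold IHH enhancers. In Saos-2 it spanned 201 bp (5.25) and in U2OS 149 bp (3.32). The 2 highest Saos-2 hotspots also lay inside NHEJ1, at chr2:219125232-219125681 (17.4) and chr2:219142293-219142702 (17.1), above 94.0% and 93.7% of the Saos-2 list. Both were overlapped in U2OS, by hotspots with a significance of 10.7 and 2.99. A further Saos-2 hotspot in NHEJ1 at chr2:219079469-219079692 (5.31) had none within 5 kb in U2OS, its nearest being 5.81 kb away.

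The U2OS excess at IHH, 12 hotspots against 7, lay on the lower-coordinate side of the window. A hotspot at the start of CDK5R2, an activator of the neuronal kinase CDK5, had a significance of 8.29. Just beyond that gene lay 3 more, the highest at chr2:218963119-218963527 with 15.8, the highest U2OS value in the window. The nearest Saos-2 hotspot to these was between 31.8 and 36.4 kb away. Other U2OS hotspots without a partner lay closer to one. That at chr2:218980109-218980283 (3.20) was 15.9 kb away, and that at the start of CFAP65 (3.10) was 11.5 kb away. With a flank of 50 kb, both lines had 3 hotspots.

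DHH, the ligand of testis and peripheral nerve (chr12:49086656-49094801), had a shared hotspot within its span. In Saos-2 it spanned 278 bp (7.14), 6.31 kb from the start, and in U2OS 408 bp (15.4), 6.23 kb from it. A second one, 121 bp (1.94), was called in U2OS. Most of the window belonged to the neighbours, with 7 of 11 Saos-2 and 11 of 15 U2OS hotspots at their starts. PRKAG1, KMT2D, RHEBL1, LMBR1L and TUBA1A were covered in both lines. At the tubulin gene TUBA1B, U2OS had 3 hotspots with a significance of 3.26, 3.92 and 3.92, and the nearest Saos-2 hotspot was 19.2 kb or more from each. The window ranked above 88.6% of protein-coding genes in density in Saos-2 and above 95.5% in U2OS.

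PTCH1, the ligand receptor (chr9:95442980-95516971), has no protein-coding neighbour within 100 kb, so each of its 7 Saos-2 and 12 U2OS hotspots lay in its own span or outside any protein-coding gene. The promoter table lists 5 starts for it, and the one at position 95509266 was covered in both lines. The hotspots there spanned 289 bp (3.88) for Saos-2 and 276 bp (4.91) for U2OS and shared 260 bp. The 3 starts at lower coordinates were between 1174 and 2044 bp from the nearest hotspot. The outermost start, which ends the span, was 5973 bp from the nearest Saos-2 hotspot and 5769 bp from the nearest in U2OS. The covered start was thus an internal one in both libraries.

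Inside PTCH1, 44.4 and 44.0 kb from the nearest listed start in Saos-2 and U2OS, a 280 bp Saos-2 hotspot (5.72) lay wholly within a 694 bp U2OS hotspot (15.7) at chr9:95462476-95463169. The highest U2OS value of the window was 17.0, for a 682 bp hotspot at chr9:95383119-95383800 beyond the lower-coordinate end, 1.52 kb from the nearest in Saos-2. In that stretch Saos-2 had its own highest value, 7.56 at chr9:95381305-95381594, which overlapped a U2OS hotspot of 2.07. Of the 12 U2OS hotspots 8 had no Saos-2 partner, and of the 7 Saos-2 hotspots 3 had no U2OS partner. In the whole lists 46.9% of U2OS and 58.1% of Saos-2 hotspots had a partner. The U2OS excess lay in the flanks: with 10 kb on either side, each line had 5.

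SMO, the membrane protein that passes the signal on (chr7:129188633-129213545), was richer in Saos-2, with 9 hotspots against 6 and 1750 against 1365 covered bases. Each of the 6 U2OS hotspots had a Saos-2 partner, against 46.9% of the whole U2OS list. The start carried Saos-2 hotspots of 205 bp (3.87) and 53 bp (1.97). The U2OS hotspot there was 117 bp wide (2.58) and shared 104 bp with the wider of them. The rest of the gene had no hotspot in either line. The other Saos-2 hotspots without a partner lay inside the neighbour AHCYL2, at chr7:129262436-129262697 (5.95) and chr7:129298423-129298548 (2.07). Saos-2 had more hotspots than U2OS at SMO under each of the 6 other settings of the lists and flanks, from 3 against 2 to 9 against 5.

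SUFU, which binds and restrains GLI factors (chr10:102502819-102633535), had start hotspots that ranked higher in each list than those at PTCH1, SMO, GLI1 and GLI2. At position 102503972 the hotspots spanned 393 bp (9.99) for Saos-2 and 457 bp (33.1) for U2OS. Just before it, toward the neighbour ACTR1A, Saos-2 had hotspots of 469 bp (19.0) and 480 bp (26.0). U2OS had a single hotspot of 1232 bp over both of them, at chr10:102501933-102503164, with a significance of 78.7, above 99.9% of its list. These hotspots lie within 1 kb of the starts of both SUFU and ACTR1A, a dynactin subunit gene, or of ACTR1A alone, and cannot be assigned to either gene.

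The SUFU gene body shared no hotspot between the lines away from the start. Saos-2 had 1 at chr10:102556111-102556369 (259 bp, 6.06), 48.0 kb from the nearest in U2OS. U2OS had 3, at chr10:102604411-102604732 (322 bp, 16.4), chr10:102628740-102628917 (178 bp, 3.25) and chr10:102629589-102630059 (471 bp, 11.8), each at least 16.0 kb from the nearest in Saos-2. Over the window U2OS had 21 hotspots, 14 of them without a partner, and Saos-2 had 11, with 3. Partners were present for 46.9% of the whole U2OS list and 58.1% of the whole Saos-2 list. At the shared start region of ARL3 and SFXN2 the U2OS hotspot was 725 bp wide (54.0) and the Saos-2 hotspot 351 bp (5.11). U2OS had more hotspots at SUFU under each of the 6 other settings.

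GLI1, an activator and itself a classic pathway target (chr12:57459785-57472268), lay among 10 protein-coding neighbours. Its lower-coordinate end had a shared hotspot, which lay 400 bp away and spanned 188 bp (2.70) for Saos-2, and 405 bp away and 255 bp (3.44) for U2OS. A second shared site inside the gene spanned 264 bp (6.55) for Saos-2, 2.87 kb from that end, and 210 bp (3.36) for U2OS, 2.91 kb from it. Saos-2 had a further hotspot of 195 bp (2.33) there, 0.059 kb from the U2OS one. All of these also overlap the non-coding gene LOC124902947.

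The highest values of the GLI1 window belonged to other genes. At the starts of ARHGAP9 and MARS1 it reached 27.3 (Saos-2) and 23.5 (U2OS), at DDIT3 8.44 and 26.9, and at DCTN2 16.6 and 16.5. All 8 U2OS hotspots had a partner among the 11 of Saos-2, against 46.9% of the whole U2OS list with a partner. This order did not hold throughout: with hotspots of at least 200 bp there were 6 in Saos-2 and 8 in U2OS, and with a flank of 50 kb 7 in each.

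GLI2, the main activator (chr2:120735868-120992653), had no protein-coding neighbour, and its window held 11 Saos-2 and 20 U2OS hotspots. Its outer start was covered by a narrow hotspot in both lines, of 69 bp (1.72) for Saos-2 and 131 bp (1.97) for U2OS. At 0.97 kb from that start, a U2OS hotspot of 520 bp at chr2:120736838-120737357 had the highest value of the window in that line (13.8) and overlapped Saos-2 hotspots of 125 bp (2.57) and 329 bp (4.03). A shared site before the start, at 5.86 kb for Saos-2 and 5.83 kb for U2OS, spanned 235 bp (5.29) and 295 bp (13.1).

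The second listed GLI2 start, at position 120792281, was covered by a 498 bp U2OS hotspot (8.58). The nearest Saos-2 hotspot to that start was 20.5 kb away. Further in, U2OS had hotspots at chr2:120818578-120818864 (9.61), chr2:120820988-120821238 (3.87) and chr2:120863752-120863932 (3.63), between 46.8 and 51.2 kb from any in Saos-2. The most significant Saos-2 hotspot, chr2:120771472-120771813 (342 bp, 6.21), had no partner either, with a U2OS hotspot 5.38 kb away. Of the U2OS hotspots 15 of 20 lacked a partner, and of the Saos-2 hotspots 5 of 11. Over the whole lists 46.9% of U2OS and 58.1% of Saos-2 hotspots had one. U2OS had more under each of the 6 other settings, from 13 against 10 within 10 kb to 12 against 3 in the top 50% of each list.

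GLI3, the main repressor (chr7:41960949-42264268), had 19 hotspots in Saos-2, the most of the 9 genes there, and 17 in U2OS, fewer than SUFU and GLI2. Its window is the longest, and per Mb it ranked 4 of 9 in Saos-2 and 7 of 9 in U2OS. The highest value in each line was at the same site beyond the lower-coordinate end. The Saos-2 hotspot at chr7:41916298-41916950 spanned 653 bp (23.8) and lay 44.0 kb away, and the U2OS hotspot spanned 752 bp (33.1) and lay 43.9 kb away. Another shared site, 4.74 kb beyond that end for Saos-2 and 4.71 kb for U2OS, had values of 6.73 and 15.5. A further one, 147 kb inside the gene, had 5.22 and 13.3. Outside the gene 5 of 6 Saos-2 and 5 of 8 U2OS hotspots had a partner, and inside it 5 of 13 and 4 of 9.

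Inside GLI3, 8 of 13 Saos-2 and 5 of 9 U2OS hotspots had no partner, while 58.1% and 46.9% of the whole lists had one. The highest of them in Saos-2 was a single hotspot at chr7:42055253-42055548 (296 bp, 7.64), 52.0 kb from the nearest in U2OS, and 3 further Saos-2 hotspots and 1 in U2OS also stood alone. At 29.9 to 35.8 kb from the lower-coordinate end U2OS had 4 hotspots, with a significance of 29.8 at chr7:41990880-41991250, 7.97, 16.6 at chr7:41996303-41996735, and 3.95. No Saos-2 hotspot lay within 13.9 kb of any of them. Toward the other end, Saos-2 had 7 hotspots from position 42232220 to 42238086, of which 3 overlapped the U2OS pair there. The 4 without a partner were narrow, from 70 to 182 bp, with a significance between 1.89 and 2.51. The strongest of this group were shared: 282 bp (7.93) and 302 bp (8.55) in Saos-2 and a single 576 bp hotspot (8.57) in U2OS. The order of the counts turned with hotspots of at least 200 bp, to 10 in Saos-2 and 11 in U2OS, and in the top 50% of each list, to 8 and 10.

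**Figure D3:**
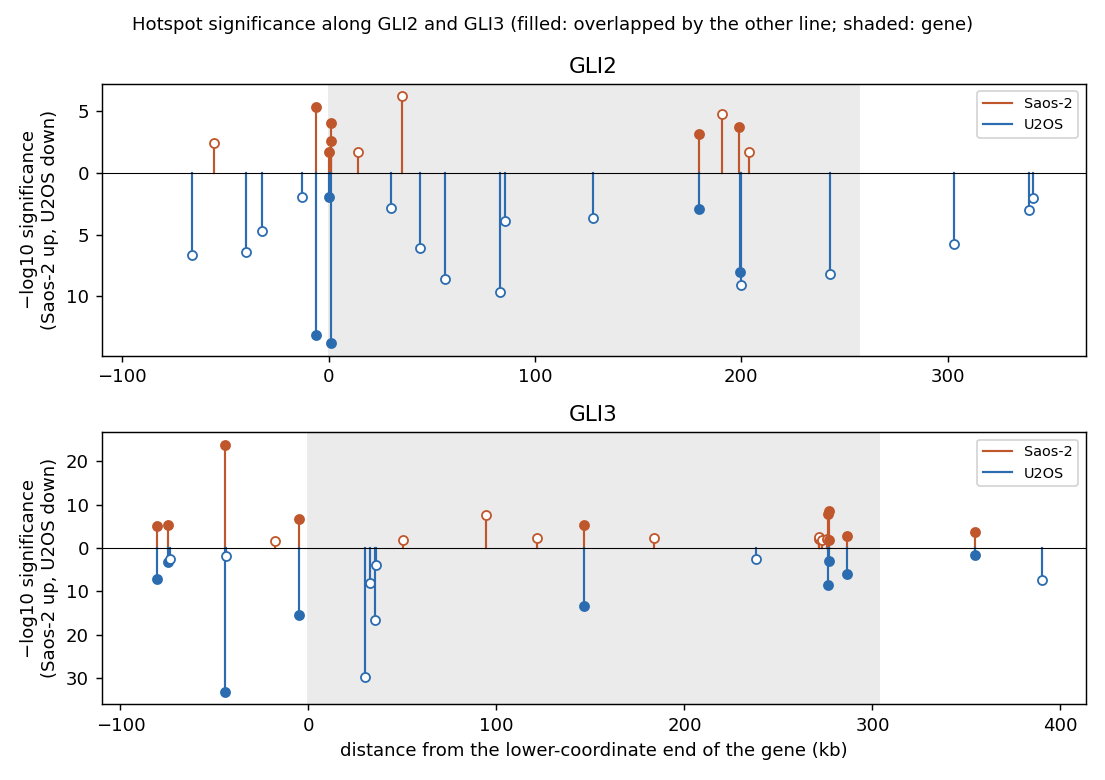
Significance of every hotspot along GLI2 and GLI3 (vertical axis, deposited value read as −log10, Saos-2 upward and U2OS downward; horizontal axis, kb from the lower-coordinate end; shading, gene span). Open circles have no partner in the other library; the U2OS group with a peak of 29.8 near the lower-coordinate end of GLI3 and the U2OS hotspot of 8.58 at the second GLI2 start are open.

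Most hotspots without a partner were more than 1 kb from any in the other line. In Saos-2 there were 29, with a median significance of 2.37, and 4 of them lay within 1 kb of a U2OS hotspot while 14 were more than 10 kb from one. In U2OS there were 58, with a median significance of 3.94, of which 9 lay within 1 kb of a Saos-2 hotspot and 36 more than 10 kb away. The highest value without a partner was 7.64 in Saos-2, at chr7:42055253-42055548 inside GLI3, and 29.8 in U2OS, also inside GLI3.

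The wider pathway was described with 35 further genes at their starts. Of these, 18 had a start hotspot in Saos-2 (51.4%) and 25 in U2OS (71.4%), against 48.1% and 53.5% of all protein-coding genes. No gene had one in Saos-2 only, against 4.79% of all genes, and 7 had one in U2OS only, against 10.1%. The 0 depends on the setting, since 1 gene was covered in Saos-2 only with equal lists, with hotspots of at least 200 bp or within 500 bp of the start, and 2 in the top 50% of each list. All 6 genes of GLI phosphorylation and turnover (PRKACA, GSK3B, CSNK1A1, BTRC, SPOP and CUL3) were covered in both lines. The cilium and relay genes were covered at 5 of 9 in Saos-2 and 6 of 9 in U2OS, and EVC, a ciliary protein that works with SMO, made the difference. Of 11 genes of ligand release and reception, the same 6 were covered in both lines, among them the co-receptors BOC, CDON and GAS1. HHIP, a decoy receptor and pathway target, had no hotspot within 10 kb of its start in either line.

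Among 10 target genes, 1 had a start hotspot in Saos-2 and 7 in U2OS, against 48.1% and 53.5% of all protein-coding genes. The class covered in U2OS only held 10.1% of all genes. PTCH1 and GLI1, which are also targets, were left out of this list and had a start hotspot in both lines. Of the 10, SNAI1, a driver of epithelial-mesenchymal transition, was covered in both, at 2.15 in Saos-2 and 1.96 in U2OS. With equal lists, or within 500 bp of a start, it was covered in Saos-2 only. The 6 covered in U2OS only were the cyclins CCND1 (251 bp, 5.02) and CCND2 (291 bp, 6.38), the transcription factors FOXF1 (245 bp, 4.45), FOXM1 (80 bp, 1.79) and MYCN (59 bp, 1.46), and the survival gene BCL2 (140 bp, 2.33). The low values matter for the count: with both lists cut to the same length it was 1 in Saos-2 (SNAI1) and 4 in U2OS (BCL2, CCND1, CCND2 and FOXF1), and in the top 50% of each list 0 and 2, CCND1 and CCND2. For CCND1, CCND2, FOXF1, FOXM1 and SNAI1, which have no entry in the promoter table, either end of the gene counted. Within 10 kb, Saos-2 did have covered bases at CCND1 (218, against 545 in U2OS) and at CCND2 (362, against 930). At BCL2, MYCN, FOXF1 and FOXM1 it had 0. Many of the target genes are also known to answer to other pathways, and no expression was used here.

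**Figure D4:**
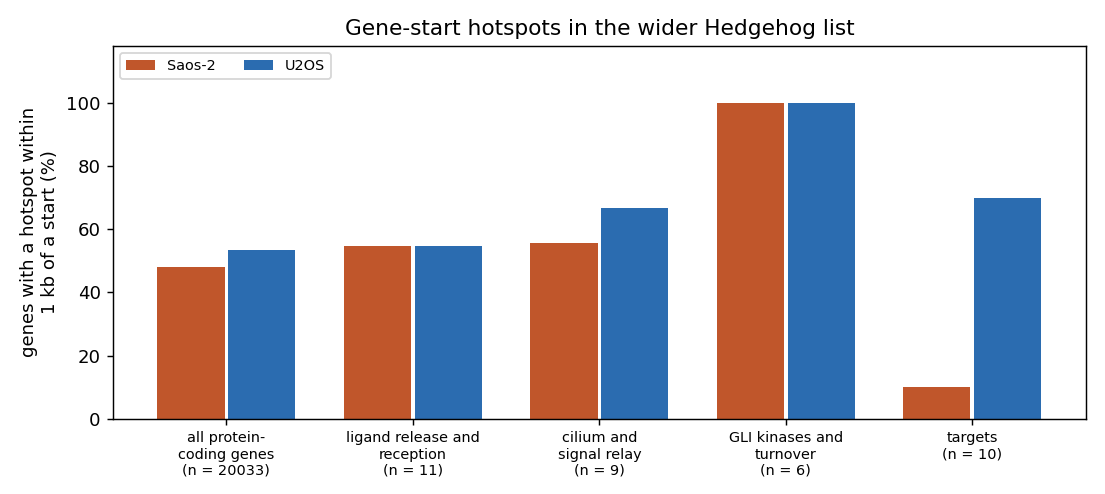
Share of genes with a hotspot within 1 kb of a start (vertical axis, percent) for all protein-coding genes and for the groups of the wider Hedgehog list, with 1 bar per library and no error bar, since each line has 1 library. The target genes, which leave out PTCH1 and GLI1, stand at 10.0% in Saos-2 and 70.0% in U2OS, and the kinase and turnover genes at 100% in both.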

How the data were processed

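DNase-seq hotspots of Saos-2 and U2OS, 1 library each, were used as the authors deposited them, as 1 list per library called at a false discovery rate of 0.05, per the file names. Trimmomatic 0.38, BWA 0.7.15 and hg38 are named in the submitters' processing notes; the hotspot caller, read filters and depth are not given in the sources used here. A deposited value of each hotspot, read as −log10 from its values, was used as its significance. The deposited score, 10 times that value rounded, was not used. Gene spans came from RefSeq (GRCh38.p14, the same primary assembly) and starts from its promoter table, which holds 15842 of 20033 protein-coding genes; for the others either end was taken. Overlap meant at least 1 bp. Wilson 95% intervals come from scipy 1.17.1; counts were made with pandas 2.3.3 in Python 3.11.15 and tested on simulated intervals. The genes, lists and alternatives were chosen with earlier results of these data known. The naming rule took all 9 genes, up to 8 wider-list genes covered in 1 line, start hotspots, the 3 most significant hotspots per window and line, and the 3 genes most like GLI3; others named were chosen after their values were seen. No group test was possible.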

Additional observations from a re-analysis of the deposited data

How the results depend on the processing

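No paired analysis was possible because each line has 1 library and the labels give no replicate numbers; for the same reason no replicate could be left out. Of 88 values recomputed for the summed windows, roles, overlap and gene starts, 59 stayed within 1.5-fold, or within the Wilson interval for shares, and 29 moved, most of them because fewer hotspots or shorter windows were counted. The top 50% of each list held 38 hotspots in Saos-2 and 58 in U2OS. Density per Mb then was, for Saos-2 and U2OS, 15.9 and 22.3 at the ligands, 10.0 and 14.0 at the receptors, 21.2 and 30.2 at SUFU, and 13.6 and 23.0 at the GLI factors. Start hotspots were then called at 1 and 3 genes, and 36.2% of the U2OS hotspots had a partner. With hotspots of at least 200 bp, Saos-2 had 47, with densities of 15.9, 16.0, 21.2 and 18.8 in the same order and 3 genes with a start hotspot; 37.8% of the U2OS hotspots had a partner. With a flank of 50 kb U2OS had 74 hotspots. With 10 kb each line had 41, the ligands 11.5 and 23.0 per Mb, the receptors 57.6 in Saos-2 and SUFU 39.8 in U2OS. When a partner had to share 50% of the length of both hotspots, 43.7% of Saos-2 and 33.9% of U2OS hotspots had one. Equal lists (87 and 100 hotspots, 62.1% and 50% with a partner) and merging moved none of these values. Using either end of the span for every gene, an alternative chosen after seeing the data, gave 4 genes with a start hotspot in each line, since the covered PTCH1 start is internal. The recounts of the wider list were also chosen after seeing the data. Depth is unknown, so a hotspot absent from 1 list may lie below its threshold.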

Other observations

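GLI3 had the most hotspots in the sum of both libraries, though not in U2OS, where SUFU (21) and GLI2 (20) had more than its 17. The protein-coding genes on other chromosomes whose windows were most like it in both counts and in length were LIMCH1 (18 in Saos-2, 17 in U2OS), FHIP1A (18 and 16) and RALGPS1 (18 and 15). The likeness is a distance on a log2 scale, 0.13, 0.17 and 0.19, over 2 libraries.

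Several hotspots of the Hedgehog windows fell on non-coding genes. At GLI2 the shared site before the start lies in LOC124906073 in both lines, and the start itself in LOC124907881. The second U2OS hotspot inside DHH overlaps DHH-AS1, its antisense gene. Near PTCH1, LOC105376157 holds a Saos-2 hotspot (2.30) and LOC105376156 a U2OS hotspot (5.80), each without a partner.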
